A study of Caenorhabditis elegans with 46 samples.

Results

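The libraries described here were made from entire L1 larvae of Caenorhabditis elegans carrying Ath-HEN1, a small RNA methyltransferase of the plant Arabidopsis, under the broadly active rps-5 driver in a henn-1(0) background. They were chosen by their titles and number 6 of the 46 libraries of the series: 3 oxidised with sodium periodate and 3 left untreated. Line MLC558 gave untreated libraries 36208 and 42751 and oxidised libraries 36209 and 42752, and line MLC557 gave untreated library 42745 and oxidised library 42746. Each line is a separate transgenic strain, and nothing in the labels separates the 2 library pairs of MLC558 by culture. All 473 worm microRNA arms of the count tables were followed, 440 of which had at least 1 count in these 6 libraries and 33 had none. The reference groups were wild type N2 worms, with no plant enzyme and henn-1 intact (2 untreated and 2 oxidised libraries), and henn-1(0) worms with Ath-HEN1 under the rab-3, unc-31, rgef-1, elt-2, myo-2, myo-3 or ASE driver (28 libraries), all of the same stage. Worms with the myo-3 or ASE driver and henn-1 intact entered the fit and the ratios of arms below.

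A microRNA is cut as a duplex from a hairpin. The arm that is kept in the Argonaute protein, called here the major arm, is usually far more abundant than the minor or passenger arm. Periodate attacks the free hydroxyl groups at the end of a small RNA, so that the RNA no longer enters a library, and a methyl group on that end protects it. HEN1 adds this methyl group in plants. Worm microRNAs normally lack it, and the worm's own enzyme HENN-1 acts mainly on other small RNAs. rps-5 encodes a ribosomal protein and its promoter is used to express genes in most cells. The comparison therefore asks which microRNA arms stay in the library after oxidation when the plant enzyme is present in most tissues. In whole larvae, fewer cells of a type and less microRNA per cell cannot be told apart.

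The untreated rps-5 libraries held 21100000, 14800000 and 12000000 counts to 3 digits (36208, 42745, 42751) and the oxidised ones 14100000, 14600000 and 10000000 (36209, 42746, 42752). Values per library are given in this order throughout. Oxidised wild type libraries held 426000 and 847000 counts. Pearson correlations of log2 values between replicates were 0.989 for each pair of untreated libraries and 0.985 to 0.986 for oxidised ones. Of the 473 arms, 395 had enough counts to be tested. Oxidised and untreated libraries are compared below as log2 fold changes with their standard error (SE) from a fit over all 46 libraries, with 3 libraries on each side, and as shares of all counts. A fold change is relative to the scaled library, so a gain of share and a rise in the fit are different statements. The median tested arm stood at 0.50. Scaling by the RLE method moved it by −0.23 and scaling by total counts alone by 0.27. The statements below therefore name the arms called in the same direction under the main TMM scaling, RLE and total counts, or say where a call rested on the scaling.

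In the rps-5 lines 227 of 395 arms changed (57.5%), 138 of them higher (34.9%) and 89 lower (22.5%; edgeR quasi-likelihood test, Benjamini-Hochberg adjusted p of 0.05). Under all 3 scalings, 94 arms rose (23.8%) and 83 fell (21%). Of the arms tested, 160 (40.5%) were higher and 83 (21%) lower in every oxidised library than in any untreated library, in CPM (counts scaled to a common library total). Abundant arms went both ways. Among the 64 arms with a mean above 1000 CPM, 15 were called higher and 23 lower, or 8 and 20 under all 3 scalings. Among the 118 above 100 CPM the counts were 43 and 30, or 34 and 27. These thresholds were chosen with the data known.

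The most abundant microRNA of untreated worms, miR-52-5p of the miR-51 family, lost most of its share. It made up 18.6%, 16.6% and 16.5% of the untreated libraries and 4.58%, 4.48% and 4.05% of the oxidised ones. The groups were far apart, and miR-52-5p fell by 2.24 ± 0.23 on the log2 scale (adjusted p = 1.37e-10). Its hairpin lies between genes on chromosome IV, 14034008 to 14034107, plus strand (WBcel235). miR-2-3p, of the miR-2 family, followed the same course and went from 5.54%, 5.36% and 5.04% to 1.07%, 1.5% and 0.999%, a fall of 2.45 ± 0.25 (adjusted p = 1.57e-10).

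miR-1-3p, the conserved muscle microRNA, took a larger share after oxidation. It held 4.2%, 2.97% and 3.74% of untreated and 12.3%, 7.04% and 9.67% of oxidised libraries. All oxidised libraries lay above all untreated ones, and miR-1-3p rose by 1.17 ± 0.31 (adjusted p = 0.00168). miR-62-3p, a mirtron whose hairpin is a short piece of ugt-50 intron (12692608 to 12692665 of chromosome X, plus strand) released by splicing, bypassing Drosha, rose by 1.19 ± 0.29, from 2.86 ± 0.245% to 7.72 ± 1.44% (SD, n = 3). miR-72-5p, a relative of miR-31, rose by 1.26 ± 0.27, from 2.39 ± 0.399% to 6.89 ± 1.67%. Among the arms that rose under all scalings, miR-238-3p (1.34 ± 0.26, from 0.504 ± 0.13% to 1.53 ± 0.435%) and miR-65-5p (0.98 ± 0.27) came next in abundance.

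Other abundant arms changed less or did not pass the test. miR-58a-3p, the bantam relative that ranked next after miR-52-5p, held 7.59%, 11.2% and 7.56% of untreated and 8.58%, 15.2% and 8.83% of oxidised libraries. The groups overlapped and the change was 0.01 ± 0.23. Line MLC557 was the higher one in both conditions. miR-79-3p, a relative of miR-9, stood at −0.09 ± 0.22, and was called lower when the 6 rps-5 libraries were fitted alone (−0.50). miR-71-5p, which extends lifespan, was called lower at −0.72 ± 0.27, with overlapping shares of 2.31% to 4.46% and 2.05% to 3.15%. The call was lost with total counts (−0.49) and without library 42745 (−0.62), 42751 (−0.59), 36209 (−0.61) or 42746 (−0.60). miR-86-5p fell by 0.71 ± 0.23 under all scalings, although not without library 36208 (−0.57). As a result of these shifts the 10 arms most abundant in untreated worms held 60.1 ± 1.52% of untreated and 48.5 ± 2.97% of oxidised counts. These arms were chosen by their untreated level, so the difference of −11.6 percentage points is a description.

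**Figure D1:**
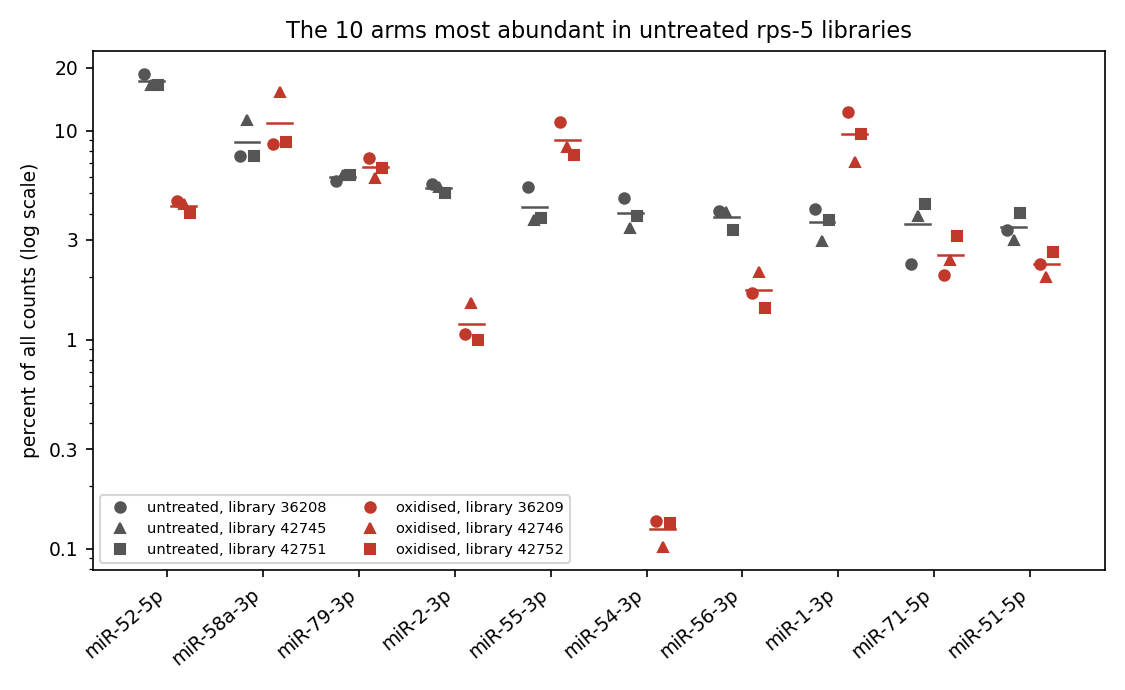
Percent of all counts (log axis) of the 10 arms most abundant in untreated rps-5 libraries, 1 point per library (grey untreated, red oxidised; circles and squares line MLC558, triangles line MLC557) with the group mean as a bar. miR-52-5p fell from a mean of 17.2% to 4.37% and miR-54-3p from 4.03% to 0.124%, while miR-55-3p and miR-1-3p took larger shares.

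Members of the same family, which share a seed and so are thought to bind similar targets, differed widely from each other. The miR-51 family, relatives of miR-100 that are needed together for embryonic development, held 33.4% of untreated and 17.8% of oxidised counts. All 6 major arms were called, 1 higher and 5 lower, against 34.9% and 22.5% of all arms. Each list holds major arms only. Of all 216 major arms tested, 66 were called higher and 68 lower, with a median of 0.14, which applies beside every list below. miR-54-3p was at 4.77%, 3.42% and 3.92% before and at 0.137%, 0.102% and 0.133% after oxidation. It fell by 5.27 ± 0.30 (adjusted p = 3.38e-17), further than any other arm with a mean above 1000 CPM. miR-55-3p held 5.36%, 3.73% and 3.80% of untreated and 11.0%, 8.34% and 7.68% of oxidised counts. The 2 groups of miR-55-3p did not overlap, and it was called higher at 0.81 ± 0.25 (adjusted p = 0.00706). That call was lost with RLE factors (0.57) and without library 36209 (0.60). Between these lay miR-56-3p (−1.43 ± 0.28), miR-53-5p (−1.49 ± 0.24) and miR-51-5p (−0.82 ± 0.24), which fell under all scalings.

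miR-54, miR-55 and miR-56 are neighbours on chromosome X, within 404 bases of the minus strand from 13144691 to 13145094. Their effects spanned 6.07 log2 units. A ratio of 2 arms within a library does not depend on scaling, and the ratio of miR-54-3p to miR-55-3p was 0.890, 0.916 and 1.03 in the untreated libraries and 0.0124, 0.0123 and 0.0173 in the oxidised ones. In wild type worms, by contrast, it was 0.838 to 0.918 before and 0.609 to 0.901 after oxidation. In each of the other 9 Ath-HEN1 genotypes the mean log2 ratio was also lower after oxidation, by −2.34 to −6.41. This ratio and the 3 below were chosen after their values were seen and were not tested.

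The miR-58 family, worm relatives of fly bantam, split in the same way. Its 4 tested major arms numbered 0 higher and 2 lower with edgeR, also at an unadjusted p of 0.05, and 0 and 3 with DESeq2, against 34.9% and 22.5% of all arms. miR-80-3p made up 1.04%, 1.64% and 1.38% of untreated and 0.0318%, 0.0827% and 0.0575% of oxidised libraries, and fell by 4.85 ± 0.37 (adjusted p = 3.04e-13). Every oxidised library lay far below every untreated one. miR-82-3p fell by 1.37 ± 0.22, whereas miR-81-3p stood at −0.48 ± 0.27 (adjusted p = 0.131). It passed as lower with RLE factors (−0.71), with DESeq2, and with the line as a replicate block (−0.46, adjusted p = 0.0455). The ratio of miR-80-3p to miR-58a-3p went from 0.137 to 0.182 in untreated libraries down to 0.00371 to 0.00651 in oxidised ones. In wild type worms the same ratio went from 0.147 to 0.171 down to 0.0356 to 0.111. Its mean log2 difference was −4.92 with rps-5, and −0.64 (ASE, henn-1(0)) to −4.21 (myo-2) in the other Ath-HEN1 genotypes.

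In the miR-64 family 2 of 5 arms were called higher and 1 lower, near the 34.9% and 22.5% of all arms. miR-229-5p, miR-64, miR-65 and miR-66 come from a cluster of 755 bases on chromosome III (2172452 to 2173206, plus strand). miR-229-5p fell by 2.82 ± 0.26, from 0.845%, 0.949% and 0.804% to 0.177%, 0.12% and 0.141%. In contrast, miR-65-5p rose, miR-64-5p was called higher at 0.73 ± 0.25, and miR-66-5p and miR-63-3p (0.24 ± 0.27) did not pass. The call of miR-64-5p was lost with RLE factors (0.50) and without library 42751 (0.57) or 36209 (0.54). The ratio of miR-229-5p to miR-66-5p was 0.708 to 0.824 in untreated and 0.0812 to 0.136 in oxidised rps-5 libraries, and in wild type worms it was higher after oxidation, at 1.24 to 2.01. It was also higher with the ASE driver and henn-1 intact (mean log2 difference 1.71). The remaining Ath-HEN1 genotypes had −0.27 (ASE, henn-1(0)) to −3.17 (rab-3), against −2.85 with rps-5.

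The miR-2 family had 1 arm higher and 2 lower of 4, against 34.9% and 22.5% of all arms. miR-250-3p rose by 1.64 ± 0.30, from 0.119%, 0.115% and 0.0972% to 0.407%, 0.452% and 0.389%, and miR-43-3p fell by 1.47 ± 0.25 beside miR-2-3p. miR-797-5p stood at −0.85 ± 0.39 (adjusted p = 0.0621), and at −0.99 (adjusted p = 0.0116) with the replicate block. Of the 3 arms of the miR-72 family 2 were called higher and 1 lower, beside the same background. miR-73-3p (0.70 ± 0.23) lost its call with RLE factors (0.46) and its neighbour miR-74-3p (−0.80 ± 0.22) with total counts (−0.53), while miR-72-5p kept its call under all 3. In the miR-44 family miR-44-3p and miR-45-3p, whose counts were nearly equal and whose reads may be shared between them, stood at 0.59 ± 0.20, and miR-61-3p at 0.70 ± 0.27. These 3 of the 4 arms were called higher, against 34.9% of all arms, lost the call with RLE factors (0.36 and 0.45), and lost it also without library 42751. miR-61-3p lost it without any of the libraries except 42746. The fourth member, miR-247-3p, fell by 5.70 ± 0.52, from 23.9, 12.4 and 23.2 CPM to 0.854, 0.0685 and 0.400 CPM. Its change was −6.79 without library 36209 and −5.09 without 42746.

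miR-49-3p and miR-83-3p, both relatives of miR-29, differed as well. miR-49-3p fell by 4.36 ± 0.34, from 0.260%, 0.486% and 0.277% to 0.0132%, 0.0345% and 0.0147%, and miR-83-3p stood at −0.17 ± 0.35. Their ratio was 0.411 to 1.01 before and 0.0197 to 0.0877 after oxidation, against 0.653 to 0.656 and 0.475 to 0.610 in wild type worms. Its mean log2 difference was −4.16 with rps-5, and −2.61 (ASE, henn-1 intact) to −5.43 (myo-2) in the other Ath-HEN1 genotypes. miR-57-5p, which acts in the posterior body, fell by 2.38 ± 0.22. The 2 arms of the miR-29 group and miR-57-5p are outside the lists and were named after their values were seen.

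**Figure D2:**
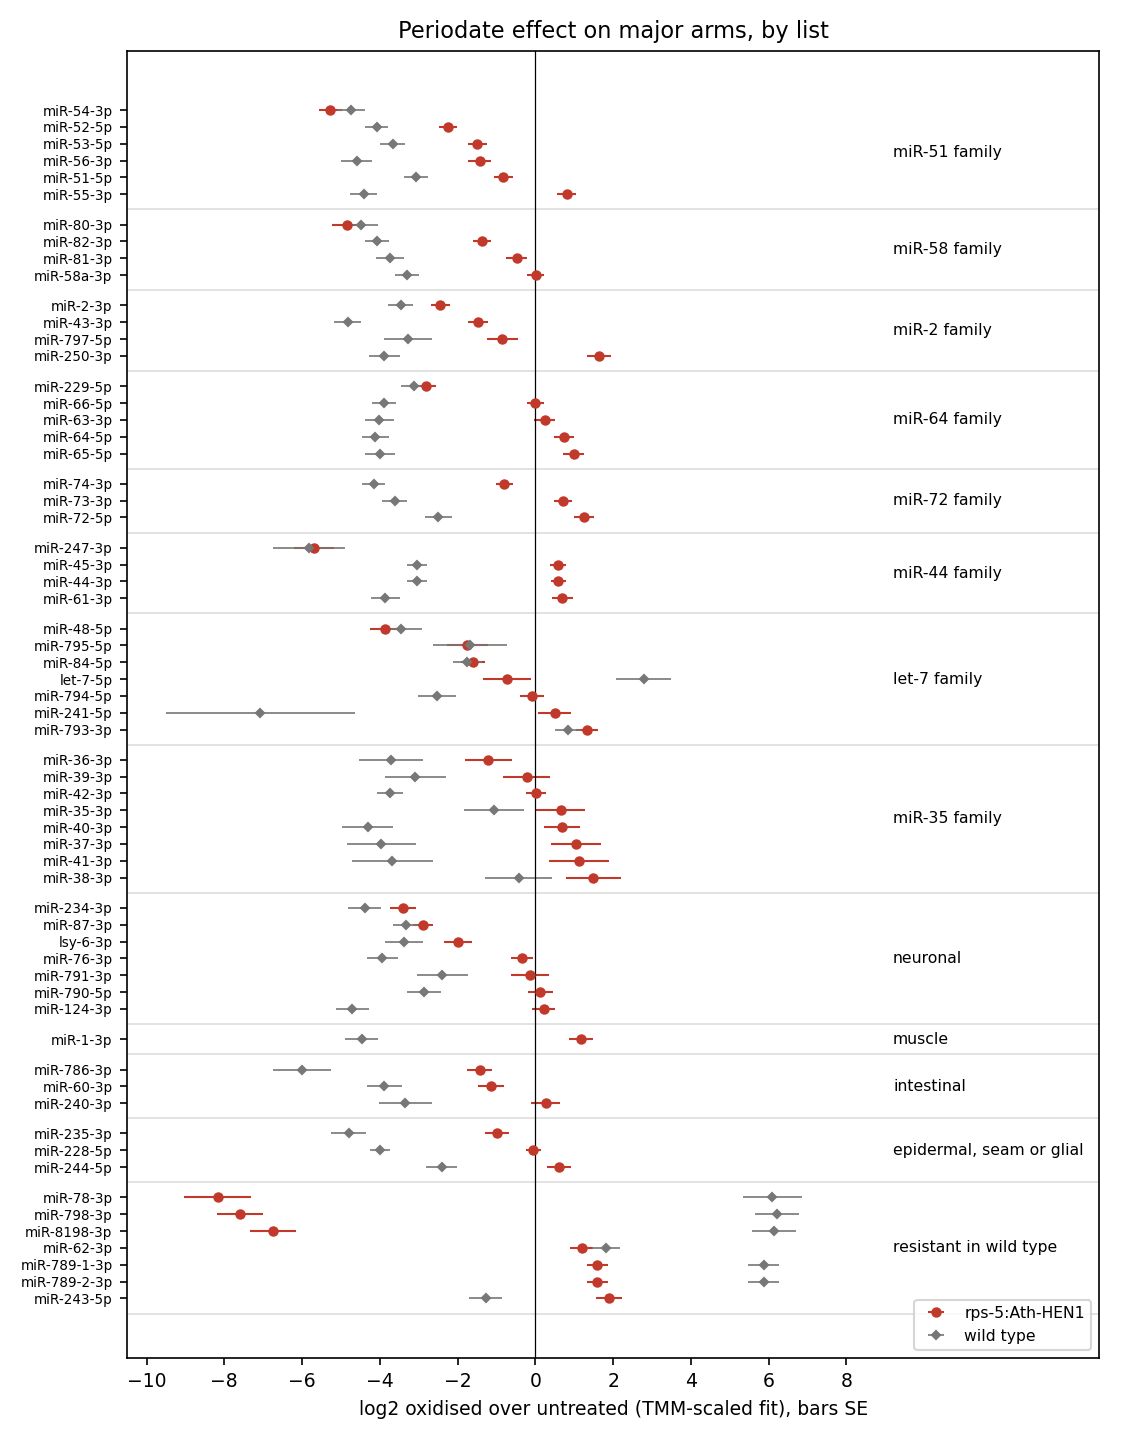
Log2 change on oxidation of the major arms of 13 lists in rps-5:Ath-HEN1 worms (red circles, 3 libraries per condition) and wild type worms (grey diamonds, 2 per condition), with bars of 1 SE on the TMM scale. Members of a family spread over several log2 units in the rps-5 lines, from miR-54-3p at −5.27 to miR-55-3p at 0.81. RLE scaling moves the median gap between genotypes by −2.54.

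Among the developmental timing microRNAs of the let-7 family, which drive the steps between larval stages, 1 of 7 arms rose and 3 fell, against 34.9% and 22.5% of all arms. miR-48-5p fell by 3.87 ± 0.38, from 17.1, 17.8 and 23.2 CPM to 1.07, 1.92 and 1.80 CPM. miR-84-5p fell by 1.61 ± 0.31. miR-795-5p fell by 1.75 ± 0.53, with 6.48, 2.91 and 2.17 CPM before and 3.13, 0.822 and 0.0999 CPM after, so that the groups overlapped. It lost its call without library 36208 (−1.09) and stood at −3.32 without 36209. miR-793-3p was the member that rose, by 1.33 ± 0.27, from 0.0699 ± 0.00243% to 0.211 ± 0.0176% (SD, n = 3). let-7-5p itself, at 1.43 ± 0.0664 CPM in these young larvae, stood at −0.73 ± 0.62, and miR-241-5p at 0.50 ± 0.42. lin-4-5p, which opens the larval timing cascade, stood at 0.79 ± 0.38 (adjusted p = 0.0731) and passed with the line as a replicate block (adjusted p = 0.025). The other member of its list, miR-237-5p, stood at 0.09 ± 0.37.

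MicroRNAs known from single tissues served as markers of those tissues. Of the 7 neuronal arms, 0 rose and 3 fell with edgeR, and also 0 and 3 with DESeq2 and 0 and 3 with edgeR at an unadjusted p of 0.05, against 34.9% and 22.5% of all arms. Among the 216 major arms, 66 were called higher and 68 lower. miR-124-3p, a conserved neuronal microRNA, held 0.965%, 0.947% and 0.957% of untreated and 1.49%, 1.17% and 1.30% of oxidised counts. Its share was higher in every oxidised library, but its change in the fit was 0.22 ± 0.29 (adjusted p = 0.551; −0.03 with RLE factors). miR-87-3p fell by 2.88 ± 0.26, miR-234-3p by 3.41 ± 0.33 and lsy-6-3p, the microRNA of the left ASE taste neuron, by 1.98 ± 0.36. lsy-6-3p was at 100, 107 and 96.8 CPM before and 31.8, 31 and 29.8 CPM after oxidation, a narrow range within each group. miR-76-3p (−0.34 ± 0.29), miR-790-5p and miR-791-3p did not pass.

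Of the 3 intestinal arms 2 fell, against 22.5% of all arms and 68 of the 216 major arms. miR-60-3p went from 2.98%, 2.20% and 1.83% to 1.68%, 0.981% and 1.13%, a fall of 1.14 ± 0.33, and miR-786-3p fell by 1.43 ± 0.33. miR-240-3p, from the same 219-base cluster as miR-786, stood at 0.26 ± 0.37. Of the 3 epidermal, seam or glial arms, miR-228-5p, which marks glia, stood at −0.06 ± 0.19 and miR-244-5p of the seam cells at 0.61 ± 0.30 (adjusted p = 0.0822; 0.60 with adjusted p = 0.035 under the replicate block). miR-235-3p, which holds progenitor cells quiescent in starved L1 larvae, was called lower at −0.99 ± 0.32, but not with total counts (−0.71). As summed shares, neuronal arms went from 2.12% to 2.60% in untreated libraries to 1.64% to 1.87% in oxidised ones, and epidermal, seam or glial arms from 2.06% to 2.28% to 2.57% to 3.28%. Intestinal arms went from 1.83% to 2.99% to 0.982% to 1.68%. The defining arms of each tissue, miR-1-3p of muscle, miR-124-3p and lsy-6-3p of neurons, miR-60-3p of intestine and miR-228-5p of glia, were all still counted after oxidation. Being counted at all does not measure retention, and lsy-6-3p and miR-60-3p were called lower.

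The miR-35 family is made in oocytes and embryos. Its 8 major arms together held 1.64%, 1.72% and 4.51% of untreated and 2.37%, 2.95% and 7.69% of oxidised libraries. Untreated library 42751 and oxidised library 42752, both of line MLC558, stood apart from the others of their group. Of the 8 arms 0 were called by edgeR, against 1 higher at an unadjusted p of 0.05 and 1 lower with DESeq2, with log2 values from −1.21 ± 0.61 for miR-36-3p to 1.49 ± 0.71 for miR-38-3p and a median of 0.67, against 0.50 for all arms. With the line as a replicate block 5 of the 8 passed: miR-37-3p (1.01), miR-38-3p (1.47), miR-40-3p (0.64) and miR-41-3p (0.88) as higher and miR-36-3p (−1.28) as lower. That fit called 242 of all 395 arms, 149 higher and 93 lower, so the family passed about as often as arms in general. The hairpins of 7 of the 8 lie within 797 bases on chromosome II (11537608 to 11538404, plus strand). Of the 8 minor arms of the family, 5 rose under all scalings, against 47 of all 179 minor arms and 23.8% of all arms.

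The largest falls in the fit belonged to scarce arms. miR-78-3p went from 4.64, 15.0 and 25.4 CPM to 0, 0.0685 and 0.0999 CPM. Its counts dropped from 623 to 2, a TMM-scaled ratio of 309 with a 95% counting interval of 85.2 to 2558. The other ratios of summed counts below are scaled alike. miR-8191-5p had 464 counts before and 1 after, for a ratio of 460 (82.2 to 18226), although its untreated level ranged from 1.51 to 20.9 CPM. The ratio was 114 (38.8 to 558) for miR-8198-3p with 346 and 3 counts, 101 (34.1 to 490) for miR-4936-3p with 304 and 3, and 64.5 (17.5 to 538) for miR-1022-3p with 130 and 2. Each was nearly absent from the oxidised libraries. miR-798-3p fell by 7.58 ± 0.59, miR-8198-5p by 6.64 ± 0.65, miR-8202-5p by 6.28 ± 0.64 and miR-70-3p by 6.12 ± 0.65. miR-70-3p, from an intron of pmp-5 on chromosome V, went from 58.5, 155 and 77.3 CPM to 1.28, 2.40 and 1.40 CPM. The change of miR-798-3p was −9.02 without library 42752, and that of miR-8198-5p −8.39 without 42752 and −5.91 without 42746. miR-4936-3p stood at −9.71 without 36209 and −5.82 without 42746, and miR-8191-5p at −7.58 without 42745 and −10.44 without 42746.

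The largest rises were of arms with a mean below 3 CPM and a handful of counts. miR-5550-5p had 0 counts before and 11 after oxidation, at least 3.69-fold higher on the TMM scale when the group's 0 is replaced by 3. miR-5553-3p had 1 and 10 counts, a ratio of 10.1 (95% counting interval 1.43 to 437), and miR-8207-3p 1 and 8, a ratio of 8.06 (1.08 to 358). miR-1832b-3p (2.61 ± 0.70), miR-8193-5p (2.59 ± 0.69), miR-8197-3p (2.39 ± 0.85), miR-4810b-5p (2.31 ± 0.71), miR-2216-5p (2.29 ± 0.55), lin-4-3p (2.29 ± 0.54) and miR-4807-5p (2.25 ± 0.65) were the others. Fitted on the 6 rps-5 libraries alone, miR-2216-5p (1.96) and miR-1832b-3p (2.28) were not called. That fit tested 331 arms, so those of the 10 with the fewest counts need not have been in it. Of the 10 arms, 5 lost the call when 1 library was left out: miR-5553-3p, miR-8207-3p, miR-4807-5p (1.51 without 36209), miR-4810b-5p (1.86 without 42746) and miR-8197-3p (2.33 without 36208). miR-5553-3p did so without library 42745 (2.56), 42751 (2.61) or 36209 (2.27), and miR-8207-3p without 36208 (2.04), 42751 (2.30), 36209 (2.85) or 42752 (2.04), and with the replicate block (adjusted p = 0.0734). Values moved by over 1.5-fold for others: lin-4-3p was at 3.33 and miR-1832b-3p at 3.49 without 42745, miR-8193-5p at 3.90 without 36208, miR-5550-5p at 4.30 without 42746, miR-4807-5p at 2.96 without 36208, miR-5553-3p at 4.82 without 36208 and miR-8207-3p at 4.55 without 42745.

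**Figure D3:**
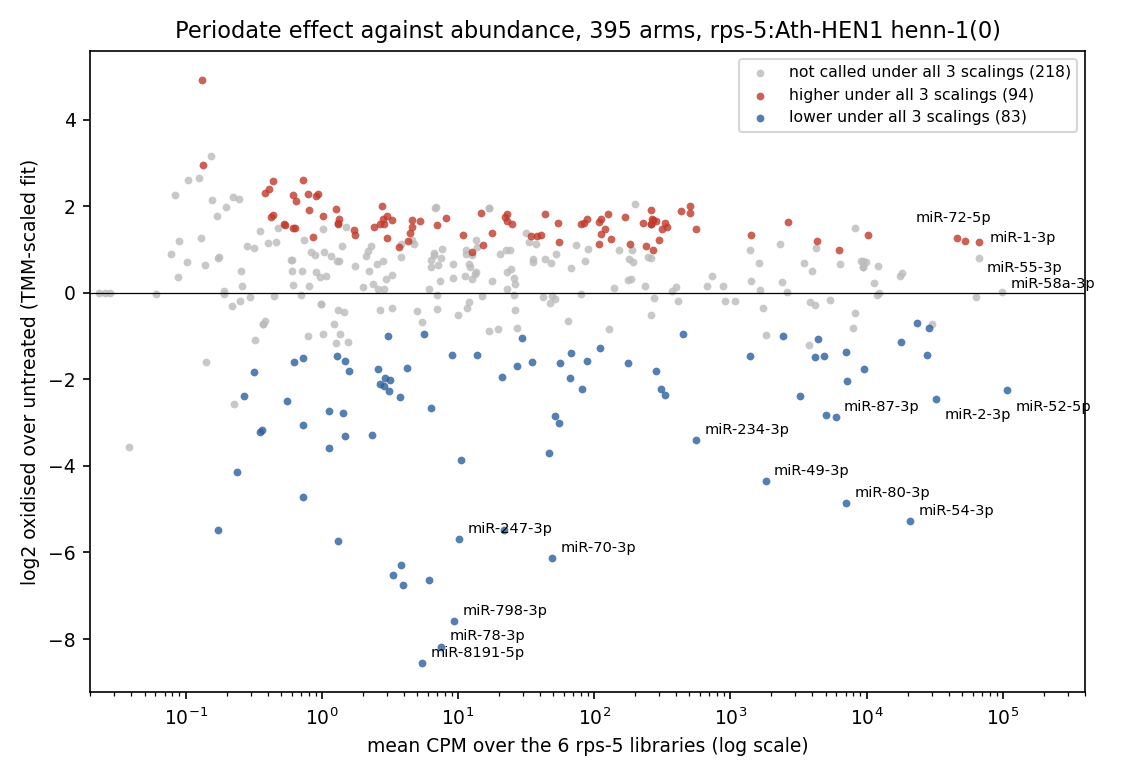
Log2 change on oxidation (TMM scale) against the mean CPM over the 6 rps-5 libraries (log axis) for 395 arms, coloured where an arm was called in the same direction under 3 scalings (94 higher, 83 lower). The falls reached −5.27 among arms above 1000 CPM and −8.56 among scarce arms, and the rises of arms above 1000 CPM ended at 1.64.

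Of 4 arms listed as mirtrons, hairpins released by splicing, 3 were called higher and 1 lower, against 34.9% and 22.5% of all arms, and 2 and 1 under all 3 scalings. The annotation used places mir-1018 between genes and the other 3 hairpins in introns. miR-62-3p and miR-1020-5p (1.47 ± 0.32) rose under all scalings, and miR-1018-3p (0.88 ± 0.35) lost its call with RLE factors (0.65) and without 36208, 42751, 42746 or 42752 (0.77 to 0.85). miR-1019-5p, from an intron of dyf-5 on chromosome I, fell by 5.48 ± 0.53, from 72.7, 26.4 and 28.4 CPM to 2.21, 0.342 and 0.799 CPM. Without library 36208 it stood at −4.79 and without 36209 at −6.56.

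Minor arms, the passenger strands of the duplex, had a higher median change than major arms. Of 216 major arms tested, 66 were called higher and 68 lower, with a median of 0.14, and of 179 minor arms 72 and 21, with a median of 0.81. Under all 3 scalings the counts were 47 and 64 for major arms and 47 and 19 for minor arms. Minor arms together held 0.517%, 0.650% and 0.505% of untreated and 1.07%, 1.47% and 1.03% of oxidised counts. Every oxidised library lay above every untreated one (means 0.557 ± 0.0804% and 1.19 ± 0.247%). Which arm of a hairpin is minor was set from untreated libraries of the series, these included, so the shift is a description. Where both arms of a hairpin were above 10 CPM, the minor arm had the higher log2 value in 55 of 73 hairpins, with a median difference of 0.85. In wild type worms the medians of the same hairpins were −3.72 for major and −1.43 for minor arms on the TMM scale. Across these 73 hairpins, which come from the same 6 libraries and are not independent, the Spearman correlation of the arms' log2 values was 0.43 and the Pearson correlation 0.35. The 5 widest gaps with the minor arm higher were those of mir-49 (−4.36 for the major and 0.47 for the minor arm), mir-80 (−4.85 and −0.04), mir-87 (−2.88 and 0.99), mir-788 (−2.36 and 1.23) and mir-90 (−1.76 and 1.60). mir-54 lost both arms (−5.27 and −1.95). Hairpins with the order turned round, where the major arm was the higher one, included mir-65 (0.98 and −3.01) and mir-61 (0.70 and −1.69). The gap of mir-65, −3.99, was wider than that of mir-87. These hairpins were named after their values were seen.

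**Figure D4:**
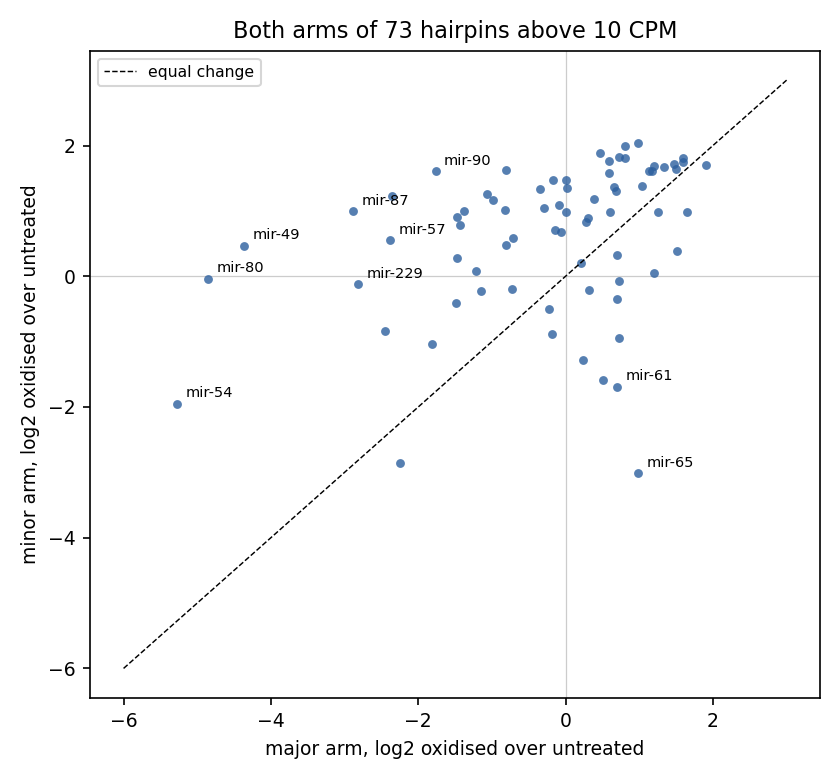
Log2 change on oxidation of the minor arm (vertical) against that of the major arm (horizontal) for 73 hairpins with both arms above 10 CPM, 1 point per hairpin. Points above the dashed line of equal change, 55 of 73, are hairpins whose minor arm had the higher value.

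The next comparison set the effect of oxidation in the rps-5 lines against that in wild type worms, which differ from them in henn-1 as well as in the transgene. These 2 differences cannot be told apart in this comparison. In wild type worms 193 of 395 arms fell (48.9%) and 82 rose (20.8%), with the median at −2.20. These wild type calls rested on the scaling: RLE factors gave 83 lower and 138 higher with a median of 0.19, and total counts 90 and 125 with a median of −0.11. The difference between genotypes was called for 234 arms (59.2%), 173 higher (43.8%) and 61 lower (15.4%) in the rps-5 lines. RLE factors moved its median from 1.92 by −2.54 and total counts by −1.76, and the split became 45 higher and 128 lower with the first and 92 and 110 with the second. Under all 3 scalings 45 arms were higher (11.4%) and 61 lower (15.4%).

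Arms retained in the rps-5 lines relative to wild type worms under all scalings included several of the most abundant. miR-1-3p differed by 5.64 ± 0.52 (adjusted p = 1.01e-11; 3.00 with RLE and 3.70 with total counts), miR-55-3p by 5.22 ± 0.42, miR-250-3p by 5.53 ± 0.50, miR-65-5p by 4.98 ± 0.46, miR-124-3p by 4.92 ± 0.49 and miR-228-5p by 3.94 ± 0.32. Of the miR-64 family 4 of 5 arms were higher in this sense, and 3 of 4 of the miR-44 family, 3 of 8 of the miR-35 family and 2 of 3 of the miR-72 family. The share was 11.4% of all arms, 41 of 216 major arms and 34 of 91 major arms above 100 CPM. It was 1 of 7 for neuronal arms, 1 of 6 for the miR-51 family and 1 of 4 for the miR-2 family. For mirtrons it was 1 of 4, and for epidermal, seam or glial arms 1 of 3. None passed in the miR-58, let-7 and lin-4 families, among intestinal arms or among arms resistant in wild type. miR-54-3p (−0.53 ± 0.39), miR-80-3p (−0.37 ± 0.50), miR-49-3p (−0.12 ± 0.47) and miR-229-5p (0.31 ± 0.39) were not called to differ from wild type in the main fit. RLE factors gave −3.10, −2.95, −2.70 and −2.29 for them. The direction for miR-52-5p, called higher at 1.84 ± 0.34, rested on the scaling (−0.72 under RLE, −0.13 by totals).

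The arms lower in the rps-5 lines were led by arms that rose on oxidation in wild type worms. miR-78-3p rose by 6.10 ± 0.77 on oxidation in wild type worms, from 2360 to 11603 counts, and the effects differed by −14.27 ± 1.2 (adjusted p = 5.37e-12). miR-798-3p (−13.79 ± 0.85), miR-8198-5p (−12.94 ± 0.94), miR-8198-3p (−12.89 ± 0.83), miR-8202-5p (−12.48 ± 0.90) and miR-4936-3p (−11.64 ± 0.73) followed. Of these, miR-798-3p stood at −15.23 without library 42752, miR-8198-5p at −14.69 without 42752 and −12.21 without 42746, and miR-4936-3p at −14.84 without 36209 and −10.95 without 42746. The 7 arms listed as resistant in wild type worms had been chosen by an earlier look at these libraries. In the rps-5 lines 3 of the 7 fell and 4 rose, against 22.5% and 34.9% of all arms. The largest of the 4 rises was that of miR-243-5p (1.90 ± 0.34). Both copies of miR-789, miR-789-1-3p and miR-789-2-3p, rose by 1.60 ± 0.27 and may share reads, and miR-62-3p was the last of the 4. Of the 82 arms that rose in wild type worms 41 rose in the rps-5 lines and 11 fell. Of the 193 that fell there 54 rose in the rps-5 lines and 60 fell. Over all 395 arms, 34.9% rose in the rps-5 lines and 22.5% fell. With RLE factors 50 of the 138 that rose in wild type worms rose in the rps-5 lines and 20 fell. Of the 83 that fell 10 rose and 40 fell, beside 94 and 97 of all arms. By total counts 74 of the 125 that rose in wild type worms rose in the rps-5 lines and 17 fell. Of the 90 that fell 24 rose and 35 fell, beside 169 and 83 of all arms.

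The last comparison set the rps-5 lines against the mean effect of the 7 drivers of single tissues in the same henn-1(0) background. It called 184 arms (46.6%), 139 higher (35.2%) and 45 lower (11.4%) with rps-5. Under all 3 scalings the numbers were 86 (21.8%) and 44 (11.1%), and RLE factors moved the median by −0.74. All 8 arms of the miR-35 family were higher under each scaling, from 2.81 ± 0.29 for miR-42-3p to 4.14 ± 0.92 for miR-41-3p. The level of that family varied between rps-5 libraries, as given above. Among the other list members and abundant arms, miR-43-3p (3.37 ± 0.29), miR-244-5p (2.95 ± 0.35), miR-44-3p (2.77 ± 0.23), miR-228-5p (2.72 ± 0.22), miR-235-3p (2.54 ± 0.36), miR-79-3p (2.43 ± 0.26) and miR-73-3p (2.18 ± 0.26) were also higher under all scalings. None of these 7 is in the neuronal, intestinal or muscle list. Of those lists, all 3 intestinal arms, 2 of 7 neuronal arms and the muscle arm were also called higher than the driver mean. The background was 35.2% of all arms and 101 of 216 major arms. The mean weights the 7 drivers alike. Of these rab-3, unc-31, rgef-1 and ASE are neuronal and only elt-2 is intestinal, so these tallies do not compare tissues on an equal footing. miR-1-3p was higher by 1.70 ± 0.34 than the driver mean, which pools the muscle drivers with the rest. miR-54-3p was lower by −1.55 ± 0.28 and miR-80-3p by −1.09 ± 0.35, also under all scalings. miR-56-3p stood at −0.72 ± 0.31 (adjusted p = 0.0537), and was called lower with the replicate block (−0.68, adjusted p = 0.0343).

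**Figure D5:**
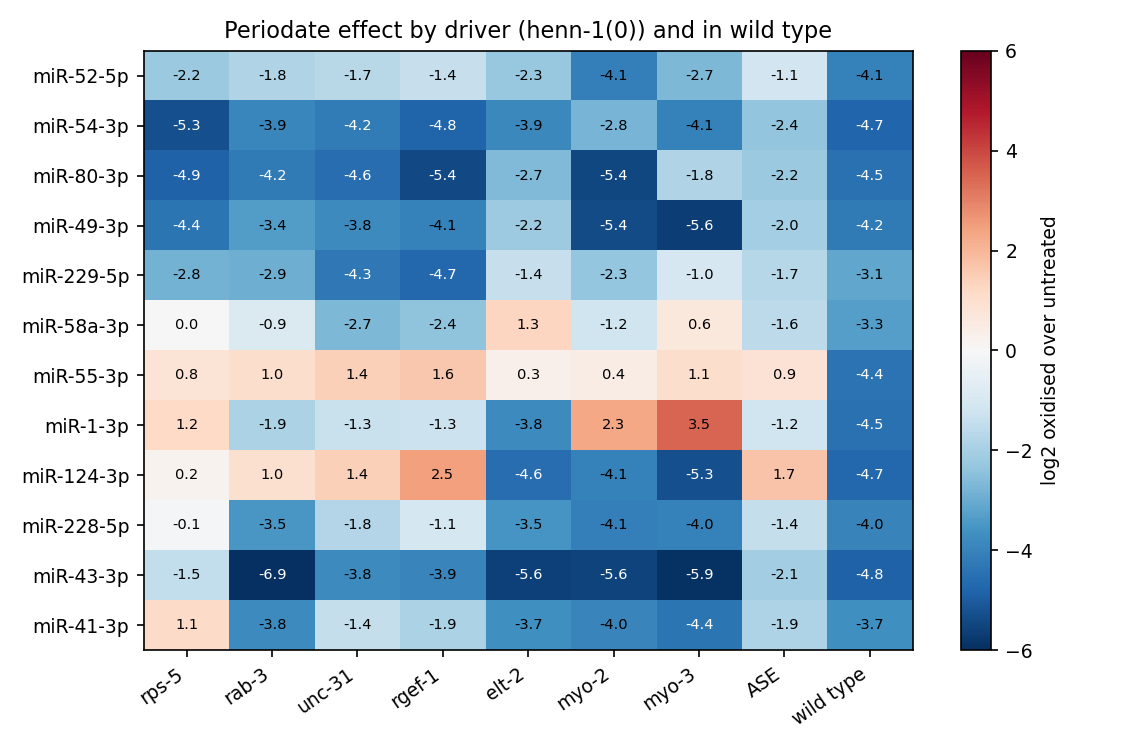
Log2 change on oxidation (TMM scale) of 12 arms in 8 henn-1(0) genotypes with Ath-HEN1 under the named driver and in wild type worms, coloured and printed per cell. miR-54-3p and miR-49-3p are negative in every column, from −2.04 down to −5.64. miR-1-3p is above 0 with rps-5, myo-2 and myo-3, and miR-124-3p with rps-5 and the neuronal drivers rab-3, unc-31, rgef-1 and ASE.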

How the data were processed

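Small RNA of 18 to 30 nt was sequenced from total RNA of whole L1 larvae, and the analysis used all 46 libraries, per the labels. The authors deposited expected counts per microRNA arm, 1 table per library with 916 entries, of which 443 were not worm arms and were 0 throughout. Per the submitters' processing notes, the tools were cutadapt 1.2.1 and HTSeq 0.6.1p1 and the build was WBcel235. No aligner is named there. Values are mostly whole. In the rps-5 libraries 33 to 43 arms were fractional (over 1e-06 from a whole number), with 0.0365% to 4.03% of the counts.

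The deposited expected counts were rounded and fitted with edgeR 4.0.16 (R 4.3.3): filterByExpr with a minimum count of 10 (395 arms, 99.9996% of the untreated rps-5 counts), TMM factors, and a robust quasi-likelihood model with 22 group coefficients (24 residual degrees of freedom). P-values were adjusted by the Benjamini-Hochberg method within each of 3 comparisons and called at 0.05. The method was tested on simulated data. Alternatives were RLE factors, total counts, no filter, DESeq2 1.42.0, the rps-5 libraries alone, the line as a replicate block, and leaving out each rps-5 library. The samples are biological replicates in the series' design text, and what separates them beyond the line is not given. The p-values therefore measure the spread between libraries of a group, estimated jointly over all 46 libraries and not from the rps-5 libraries alone. The labels give the transgenic line, which pairs oxidised with untreated libraries; deviations of line MLC557 from the group means correlated at 0.852.

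Members, lists and the rule for named arms were chosen with earlier results of these data known. The rule names the 10 largest called rises and falls with the same sign in every oxidised library, the 10 most abundant arms, the 5 most abundant called each way under all scalings, the 6 largest differences each way from the reference groups, and the members of 15 lists, each hairpin being represented by its major arm, the one more abundant without oxidation. Hairpin positions come from the WBcel235 annotation, for 468 arms. Counting intervals and floors of 3 counts cover counting error only. Sequence features were not used here.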

Additional observations from a re-analysis of the deposited data

Results flagged for a closer look

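The effect of oxidation in the rps-5 lines differed from a reference genotype by a test of the difference itself for each arm below (edgeR quasi-likelihood test, Benjamini-Hochberg adjustment), the 6 furthest apart in each direction.

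Against wild type worms, 6 arms that were higher in the rps-5 lines had 0 counts in the oxidised wild type libraries, which are small, so the fitted value is no bound. These were miR-4920-5p (10.06 ± 2.61; 274 counts in oxidised rps-5 libraries; 9.28 without library 36209), miR-8205-3p (9.58 ± 1.71; 174 counts), miR-4806-5p (9.53 ± 2.35; 203 counts), miR-1828-5p (9.13 ± 1.94; 127 counts), miR-1817-5p (8.67 ± 1.83; 121 counts) and miR-2218a-5p (8.65 ± 2.30; 105 counts). The 6 arms furthest in the other direction were miR-78-3p (−14.27), miR-798-3p (−13.79), miR-8198-5p (−12.94), miR-8198-3p (−12.89), miR-8202-5p (−12.48) and miR-4936-3p (−11.64). Each of these gained counts on oxidation in wild type worms, as miR-798-3p did from 648 to 3531, and had at most 5 counts left over the 3 oxidised rps-5 libraries.

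Against the mean of the other 7 henn-1(0) drivers, miR-8197-3p (5.59 ± 1.30) was at 0 counts after oxidation in 5 driver genotypes and miR-5593-1-3p and miR-5593-2-3p (5.01 ± 0.97 each, with identical counts) in 6. miR-8210-5p (4.69 ± 0.65) was at 0 in 3 genotypes, and miR-8205-3p (4.57 ± 0.54) and miR-8205-5p (4.50 ± 0.59) in 1. Fitted values against groups at 0 are no bounds. Lower in the rps-5 lines were miR-78-3p (−3.61 ± 1.05), miR-8198-5p (−3.21 ± 0.72; −4.96 without library 42752 and −2.48 without 42746), miR-798-3p (−3.13 ± 0.65; −4.57 without 42752), miR-8202-5p (−3.11 ± 0.71), miR-1019-5p (−3.03 ± 0.53; −2.34 without 36208 and −4.11 without 36209) and miR-4936-3p (−2.62 ± 0.64; −5.82 without 36209 and −1.93 without 42746). Except for miR-1019-5p with 44, they had only 2 to 5 counts left over the oxidised rps-5 libraries, near the floor. Low counts after oxidation were not particular to rps-5. miR-78-3p, for instance, went from 654 to 5 counts with elt-2 and from 373 to 17 with ASE.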

How the results depend on the processing

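In the rps-5 lines 227 arms were called, 138 higher and 89 lower. The 6 libraries fitted alone, with 331 arms tested, called 134, with 49 higher, and 66 higher with the line as a replicate block. Without a filter on low counts 91 were higher. The replicate block in the fit of all libraries gave 242 calls, 149 higher and 93 lower, and changed the calls of 10 of 87 named arms here and of miR-56-3p against the other drivers. Those values stand beside the results, and it changed no other call of a named arm. Leaving out 1 library gave 194 to 211 calls, 105 to 124 higher and 81 to 89 lower. DESeq2 called 202 arms.

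Against wild type worms the 173 higher and 61 lower arms became 45 and 128 under RLE scaling, 92 and 110 by total counts, 64 and 111 without a filter and 47 and 140 with DESeq2. Against the other drivers 139 and 45 became 86 and 106 with RLE factors, 84 and 91 without a filter and 86 and 119 with DESeq2. Of the named arms, miR-66-5p turned to −0.40 in the 6 libraries alone, with or without the block, and miR-58a-3p to −0.38 with it. Among the named arms tested there, the 6 libraries alone also called 4 further ones, all lower, and lost the calls of 11. Against wild type worms miR-2-3p turned to −1.55 (RLE and DESeq2), −0.82 (total counts) and −1.15 (no filter), miR-79-3p to −2.05, −1.26 and −1.65, and miR-52-5p to −0.72, −0.13 and −0.34 in the same order; miR-71-5p turned to −0.26 and miR-51-5p to −0.35 with RLE and DESeq2. The cause was not tested. The share of minor arms and that of the 10 most abundant arms differed between conditions by 0.634 and −11.62 percentage points without arms holding fractional counts, close to 0.633 and −11.65 with them. Oxidised wild type libraries, with 426000 and 847000 counts, limit what can be seen of scarce arms there.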

Other observations

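miR-239a-5p and miR-239b-3p, of a microRNA group linked to stress and lifespan, were chosen after their values were seen because they varied widely between libraries of a group. miR-239a-5p held 0.617%, 1.03% and 2.65% of untreated libraries 36208, 42745 and 42751 and 0.935%, 1.53% and 4.21% of oxidised libraries 36209, 42746 and 42752. Its change was 0.47 ± 0.47, and 0.41 ± 0.46 with the line as a replicate block. miR-239b-3p was at 14.6, 50.0 and 153 CPM before and 55.1, 209 and 722 CPM after oxidation in the same order, with a change of 2.04 ± 0.78 (adjusted p = 0.0287, edgeR; 0.0441 with the replicate block, and 0.0542 with RLE factors, where the call was lost). Libraries 42751 and 42752 were the highest of their groups for both arms, as they were for the summed miR-35 family.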
